A study of Homo sapiens with 4 samples.

Results

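Chromatin at genes for renal ion and organic solute transporters was examined in 786-O cells, an established line of clear cell renal cell carcinoma, a tumour thought to arise from the proximal tubule. The members are the 82 protein-coding genes, of 20037 in a RefSeq table of GRCh38.p14, whose symbol starts with one of 9 prefixes: SLC4A (bicarbonate and anion exchangers), SLC5A (sodium-coupled sugar and solute carriers), SLC9A (sodium-proton exchangers), SLC12A (cation-chloride cotransporters), SLC13A (sodium-coupled sulfate and carboxylate carriers), SLC22A (organic cation and anion transporters), SLC26A (anion exchangers), SLC34A (sodium-phosphate cotransporters) and SLC47A (organic cation extruders). Every member was measured, with no filter on low values. SLC4A1AP, which encodes an adaptor protein and no transporter, is a member through its symbol alone, and SLC22A18 is not a member because the table lists it as SLC67A1.

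The assay was ATAC-seq, which reads where a transposase can insert into open chromatin, and the authors called peaks in each library separately on hg38. Cells were given DMSO, the vehicle, in 2 libraries and 5 µM of the agent labelled ACSS2i in 2 libraries, each for 24 h. All cells were of the same line with no other change named. The labels do not say that replicates were separate cultures. DMSO lists held 34696 and 50294 peaks and ACSS2i lists 16400 and 22044 (replicates 1 and 2, the order used throughout), and the median fold of a peak was 5.35, 6.65, 4.65 and 4.30. Read totals were not at hand. The treatment and the shorter lists with lower folds of these 2 libraries cannot be told apart. Of 8 markers of this carcinoma, 5 had a peak at a gene end in both DMSO libraries (CDH2, KRT8, KRT18, PAX8 and VIM), while CA9, COXFA4L2 and PAX2 had none in any library. Of all genes 52.3% had one in both DMSO libraries, so the marker count lies near the background. Of 6 proximal tubule markers, 0 had one in both DMSO libraries and GGT1 had one in DMSO replicate 2 alone. LRP2, CUBN, AQP1 and HNF4A were among those with none at an end, though each had a peak inside its span in some library. Immune markers gave 0 of 6 in both DMSO libraries, endothelial or stromal markers 1 of 6 (COL1A1), and markers of neurons or muscle 2 of 6 (SNAP25 and SYT1).

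The kidney tubule recovers salt, sugar, phosphate, bicarbonate and organic acids from the filtrate and secretes drugs and metabolites. It does so with carriers placed in the apical or basolateral membrane of particular segments, and many of these are made in few other tissues. Other members of the same families serve almost every cell: they set cell volume, cytosolic and organellar pH, and the uptake of sulfate, carnitine or vitamins. The members were therefore split by textbook expression into 28 tubule-specific genes, 20 widely used genes and 34 remaining members, most of them typical of other tissues. Some placements are uncertain, among them SLC4A1 and SLC9A4 (tubule-specific) and SLC22A17 (widely used), and none of these 3 had a gene-end peak.

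The stretches just upstream of a start show how the classes differ in sequence. Shown are 150 bases before a RefSeq start (GRCh38.p14), 5′ to 3′ on the gene's strand, with CpG dinucleotides in capitals. The tubule-specific examples are SLC26A1 (chr4:993405-993554, minus strand), the first and the inner start of SLC47A2 (chr17:19718980-19719129 and chr17:19716585-19716734, minus strand), SLC34A1 (chr5:177384284-177384433, plus strand), SLC22A12 (chr11:64591070-64591219, plus strand) and SLC12A3 (chr16:56865057-56865206, plus strand). The widely used examples are SLC4A2 (chr7:151058050-151058199), SLC26A2 (chr5:149960608-149960757) and SLC12A2 (chr5:128083616-128083765), all on the plus strand. SLC26A1 and the widely used examples had all 150 printed bases under a peak in each of the 4 libraries. The inner start of SLC47A2 had 113 under one in ACSS2i replicate 1 and 150 in the others, and the other 4 stretches had none in any.
SLC26A1: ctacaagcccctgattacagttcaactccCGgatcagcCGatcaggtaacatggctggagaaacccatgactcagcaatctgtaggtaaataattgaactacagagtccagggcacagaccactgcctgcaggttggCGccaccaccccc
SLC47A2 first start: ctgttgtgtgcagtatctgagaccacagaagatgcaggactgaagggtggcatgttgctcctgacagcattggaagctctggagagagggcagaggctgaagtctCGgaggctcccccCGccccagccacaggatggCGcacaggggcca
SLC47A2 inner start: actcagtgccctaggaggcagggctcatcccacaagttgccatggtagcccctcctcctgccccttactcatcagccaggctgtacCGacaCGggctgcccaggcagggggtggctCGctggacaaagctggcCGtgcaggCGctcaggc
SLC34A1: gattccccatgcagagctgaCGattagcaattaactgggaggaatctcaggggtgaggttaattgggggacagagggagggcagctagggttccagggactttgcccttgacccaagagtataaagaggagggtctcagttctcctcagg
SLC22A12: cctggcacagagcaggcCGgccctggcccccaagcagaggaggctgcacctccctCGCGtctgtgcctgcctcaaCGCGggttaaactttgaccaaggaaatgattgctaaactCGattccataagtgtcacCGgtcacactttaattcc
SLC12A3: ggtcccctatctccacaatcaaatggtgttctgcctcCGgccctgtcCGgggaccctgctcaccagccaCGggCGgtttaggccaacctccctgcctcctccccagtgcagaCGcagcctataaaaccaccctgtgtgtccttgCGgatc
SLC4A2: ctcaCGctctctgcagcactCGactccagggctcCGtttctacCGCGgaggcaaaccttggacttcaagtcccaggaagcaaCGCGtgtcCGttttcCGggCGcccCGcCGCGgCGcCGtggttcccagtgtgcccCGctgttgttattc
SLC26A2: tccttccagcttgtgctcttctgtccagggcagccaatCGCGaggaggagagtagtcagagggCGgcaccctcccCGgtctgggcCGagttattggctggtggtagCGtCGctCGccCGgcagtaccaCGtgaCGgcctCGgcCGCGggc
SLC12A2: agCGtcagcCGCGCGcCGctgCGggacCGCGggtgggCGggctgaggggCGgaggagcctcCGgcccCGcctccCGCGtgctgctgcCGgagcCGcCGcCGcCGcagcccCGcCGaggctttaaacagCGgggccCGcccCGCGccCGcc

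The printed stretches hold 3 CpGs for SLC26A1, 3 and 5 for the first and inner starts of SLC47A2, 1 for SLC34A1, 7 for SLC22A12 and 6 for SLC12A3, against 16 for SLC4A2, 14 for SLC26A2 and 26 for SLC12A2. Of the printed tubule-specific stretches, SLC26A1 and the inner start of SLC47A2 were covered, with 3 and 5 CpGs, and the others were not. All of these come from CpG-poor windows, as defined below. Over all genes, 12.7% of CpG-poor and 68.2% of CpG-rich promoter windows lay under a peak in both DMSO libraries.

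Most widely used transporter genes had a peak called at an end, and most tubule-specific genes had none called. A peak was assigned to a gene end when any base of it lay at most 1000 bp from the lower or upper coordinate of the gene span. Such peaks were present for 16 and 18 of the 20 widely used genes with DMSO and for 10 and 12 with ACSS2i. They were present for 4 and 4 of the 28 tubule-specific genes with DMSO and for 3 and 1 with ACSS2i. The 34 remaining members had them for 4 and 7 genes with DMSO and 1 and 2 with ACSS2i. Over all 20037 protein-coding genes the shares were 52.6% and 60.0% with DMSO and 32.5% and 40.7% with ACSS2i, so that in every library the widely used share, 80%, 90%, 50% and 60%, lay above the background and the tubule-specific share, 14.3%, 14.3%, 10.7% and 3.57%, lay below it. All 82 members together gave 24 and 29 genes with DMSO and 14 and 15 with ACSS2i. The lists were counted in full, so no sampling interval is given, and no test was made over the chosen members.

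With each list cut to its 16400 strongest peaks, the members' counts in the 2 groups overlapped. The counts were then 11 and 14 of 82 with DMSO and 14 and 13 with ACSS2i, or 13.4%, 17.1%, 17.1% and 15.9%, against 34.8%, 39.0%, 32.5% and 34.5% of all genes. Both DMSO lists then held 10 members (31.2% of all genes), and 0 of these were missing from both ACSS2i lists (5.29% of such genes overall). Widely used genes gave 8, 11, 10 and 10 of 20 and tubule-specific genes 2, 1, 3 and 1 of 28. The contrast between the classes was thus present at both list lengths, whereas the lower ACSS2i count of members was present in the full lists alone. The cut gives every list the same number of peaks, which by design removes any general difference in peak number between the treatments.

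**Figure D1:**
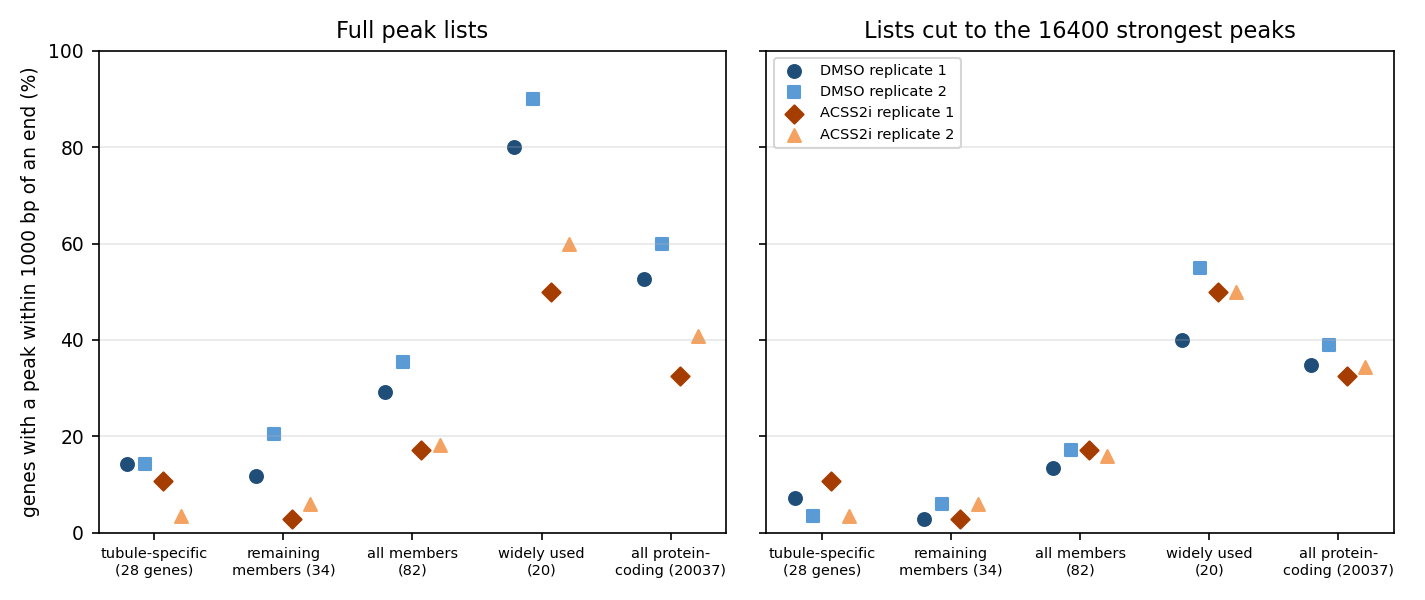
Share of genes (%) with a peak within 1000 bp of an end, by gene class, with one point per library, in the full lists (left) and with each list cut to its 16400 strongest peaks (right). Widely used genes lie at 50% to 90% in the full lists and tubule-specific genes at 3.57% to 14.3%; at equal length the libraries of the 2 treatments overlap within the members.

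Of the 82 members, 24 had gene-end peaks in both DMSO libraries (29.3%, against 52.3% of all genes). These were 16 of 20 widely used, 4 of 28 tubule-specific and 4 of 34 remaining members. Among the 24, 11 had one in all 4 libraries (45.8%, against 58.0% of all such genes and 30.3% of all genes), 7 in a single ACSS2i library and 6 in neither (25.0%, against 18.9%). The share absent from ACSS2i was thus near the background, and no member had the opposite pattern of a peak in both ACSS2i lists and no DMSO list (0 of 20037 genes did). For a further 5 members DMSO replicate 2 was the one library with such a peak, with folds of 6.78 for SLC5A3, 4.76 for SLC9A9, 2.59 for SLC12A5, 7.06 for SLC22A23 and 9.36 for SLC26A9, and 53 had none in any library. By family, a gene-end peak in both DMSO lists was present for 4 of 11 SLC4 genes, 2 of 12 SLC5, 4 of 9 SLC9, 5 of 9 SLC12, 1 of 5 SLC13, 4 of 21 SLC22, 4 of 10 SLC26, 0 of 3 SLC34 and 0 of 2 SLC47 genes.

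**Figure D2:**
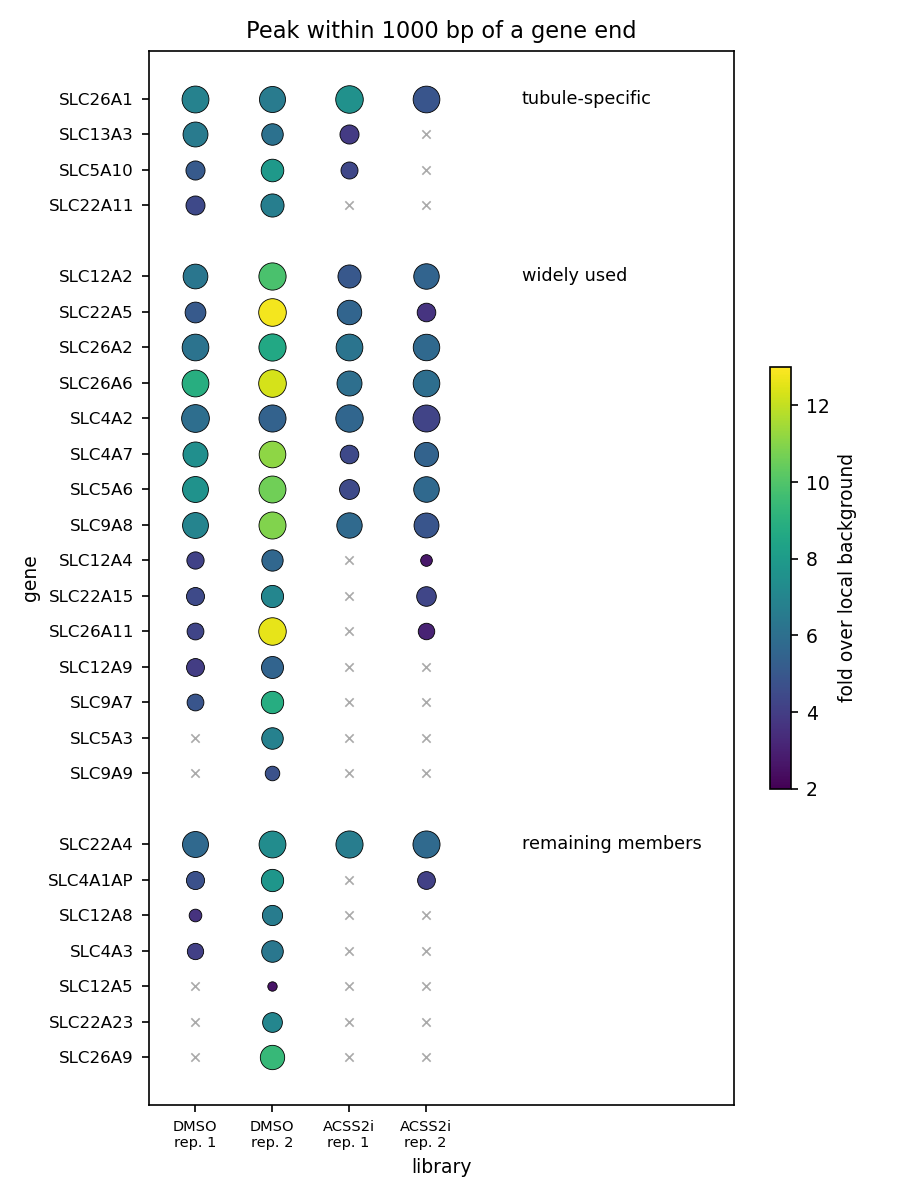
Members with a gene-end peak in any library (26 of 29 drawn, rows) by library (columns); colour gives the fold of the strongest summit over local background, circle size grows with the strength percentile within the library, and grey crosses mark no peak. Of the 15 widely used genes drawn, 8 are filled across all 4 libraries, against 1 of 4 tubule-specific genes (SLC26A1) and 1 of 7 remaining members (SLC22A4).

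The 4 tubule-specific genes with gene-end peaks differed in strength. Fold is the authors' enrichment of a summit over the local background of its own library, and the percentile ranks −log10 q of the peak within its own list; neither was compared between groups by a test, since 2 against 2 libraries allow no two-sided exact permutation p below 0.333. SLC26A1 (chromosome 4, 978991 to 993404, minus strand), a sulfate and oxalate exchanger of the proximal tubule, had folds of 6.83 and 6.55 with DMSO and 7.50 and 4.89 with ACSS2i. The ACSS2i values lay on both sides of the DMSO values. Its percentiles were 91.5, 85.1, 96.8 and 90.3, and its summits lay 456 to 675 bp downstream of the start, so that the 150 bases printed above were at the flank of the peak. The peak also lay inside the span of IDUA, a lysosomal enzyme gene. It was the only tubule-specific gene with a peak in all 4 libraries at equal list length.

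SLC13A3 (chromosome 20, 46557828 to 46684485), which carries dicarboxylates with sodium, had folds of 6.54 and 6.12 with DMSO and 3.89 in ACSS2i replicate 1, and no peak in ACSS2i replicate 2. Its summits lay 809 to 828 bp inside the lower end of the gene. The strand of SLC13A3, and of SLC22A11 below, was not at hand, so whether the end with the peak is the start was not determined. SLC5A10 (chromosome 17, 18950676 to 19022565, plus strand), which encodes the kidney sugar carrier SGLT5, had folds of 5.06 and 7.91 with DMSO and 4.36 in ACSS2i replicate 1, and none in ACSS2i replicate 2. Its summits lay 428 to 540 bp downstream of the first start. SLC22A11 (chromosome 11, 64555941 to 64572875), the organic anion transporter OAT4, had folds of 4.43 and 6.65 with DMSO, 157 and 177 bp below the lower coordinate of the span, and no peak in either ACSS2i library. At equal list length SLC22A11 had no peak, SLC5A10 had one in ACSS2i replicate 1 alone, and SLC13A3 had one in DMSO replicate 1 and in ACSS2i replicate 1.

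No library had a gene-end peak for the other 24 tubule-specific genes. They include the sodium-glucose carriers SLC5A1 and SLC5A2, the phosphate carriers SLC34A1 and SLC34A3, the proton exchanger SLC9A3, the diuretic targets SLC12A1 and SLC12A3, the organic anion transporters SLC22A6 and SLC22A8, the urate carrier SLC22A12, the organic cation transporter SLC22A2, and the extruders SLC47A1 and SLC47A2. For 11 of these 24 no peak lay inside the span either, namely SLC4A1, SLC5A8, SLC5A12, SLC13A2, SLC22A6, SLC22A8, SLC22A12, SLC22A13, SLC26A4, SLC34A3 and SLC47A1. The nearest peak of any library lay 86080 bp from an end of SLC22A6, 102307 bp from SLC22A8 and 144638 bp from SLC5A12. Among the remaining members, SLC22A9, SLC22A10, SLC22A24 and SLC22A25 had their nearest peaks 120810 to 267920 bp away. No peak at an end or inside the span was found for 39.3% of tubule-specific genes, 5.00% of widely used genes (SLC22A17) and 52.9% of remaining members, against 27.9% of all genes.

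By the lower of its percentiles in the DMSO libraries, the first of the widely used members was SLC4A2 (chromosome 7, 151058200 to 151076527), the anion exchanger AE2 of most cells. Its folds were 5.93 and 5.42 with DMSO and 5.58 and 4.23 with ACSS2i, and its percentiles 98.4, 93.0, 95.7 and 92.2. The recovered pileup at its summit was 109 and 172 fragments with DMSO and 53 and 72 with ACSS2i. Local backgrounds were 17.6 and 30.9 with DMSO and 8.68 and 16.3 with ACSS2i. These counts were not adjusted for read totals, which were not at hand, and the folds of the 2 groups overlapped. The same peak lay within the window of CDK5, so it cannot be assigned to SLC4A2 alone.

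SLC26A6 (chromosome 3, 48625723 to 48635461), an anion exchanger of many epithelia, had folds of 8.90 and 12.3 with DMSO and 5.98 and 5.94 with ACSS2i. SLC26A2 (chromosome 5, 149960758 to 149987400), the sulfate carrier whose loss disturbs cartilage, had 6.20 and 8.61 with DMSO and 6.25 and 5.73 with ACSS2i. Both ACSS2i folds of SLC26A6 lay below both DMSO folds, in libraries whose median folds differ the same way. The SLC26A2 folds overlapped between the groups. The share of all genes with folds ordered as in SLC26A6 was not counted. SLC26A2 summits lay from 83 bp upstream to 40 bp downstream of its start. The SLC26A6 peak also lay within 1000 bp of an end of CELSR3.

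SLC5A6 (chromosome 2, 27199587 to 27212787), a vitamin carrier for biotin and pantothenate, had folds of 7.57 and 10.6 with DMSO and 4.48 and 5.73 with ACSS2i, at a peak shared with ATRAID. SLC9A8 (chromosome 20, 49812828 to 49892242), a sodium-proton exchanger of the Golgi, had 6.96 and 10.9 with DMSO and 5.78 and 4.91 with ACSS2i. SLC4A7 (chromosome 3, 27372723 to 27484384), a sodium bicarbonate cotransporter, had 7.43 and 11.1 with DMSO and 4.42 and 5.45 with ACSS2i. In each of these 3 genes both ACSS2i folds lay below both DMSO folds, in libraries whose median folds differ the same way. How common this order is among all genes was not counted. SLC12A2 (chromosome 5, 128083766 to 128189677), the cotransporter NKCC1 that sets cell volume and chloride, had 6.31 and 9.83 with DMSO and 4.98 and 5.51 with ACSS2i. SLC22A5, the carnitine carrier, had 5.07 and 12.8 with DMSO and 5.54 and 3.65 with ACSS2i, so its DMSO libraries differed more from each other than the groups did.

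Among the remaining members, SLC22A4 (chromosome 5, 132294394 to 132344190), the ergothioneine carrier, was the only one with a gene-end peak in all 4 libraries. Its folds were 5.72 and 7.32 with DMSO and 6.62 and 5.75 with ACSS2i, with percentiles of 84.5, 91.3, 93.5 and 93.1. Its summits lay 154 to 244 bp upstream of the start in every library. It neighbours SLC22A5 on chromosome 5, and both had peaks at their own starts.

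Some widely used genes were in both DMSO lists and 1 ACSS2i list. SLC12A4, a potassium-chloride cotransporter that extrudes salt from swollen cells, had folds of 4.19 and 5.64 with DMSO and 2.69 in ACSS2i replicate 2. SLC22A15 had 4.49 and 7.03 with DMSO and 4.31 in ACSS2i replicate 2. SLC26A11 had 4.26 and 12.6 with DMSO and 3.07 in ACSS2i replicate 2, but the strongest of 2 end peaks in DMSO replicate 2 lay at the upper end, and those of DMSO replicate 1 and ACSS2i replicate 2 at the lower end, beside SGSH. None of these 3 had a gene-end peak in ACSS2i replicate 1, where the nearest peak to SLC26A11 lay 1201 bp from an end.

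The 6 members present in both DMSO lists and neither ACSS2i list lay low in the ranking of DMSO replicate 1. SLC9A7, a sodium-proton exchanger of the Golgi, had folds of 4.91 and 8.86. SLC12A9 had 3.95 and 5.50, SLC12A8 3.60 and 6.56, SLC4A3 4.10 and 6.37, and SLC22A11 the values above. With DMSO replicate 1 their percentiles were between 10.7 (SLC12A8) and 39.7 (SLC22A11), below the median of 66.7 over all genes with a gene-end peak. None of the 6 was called with DMSO and missing with ACSS2i at equal list length. The SLC12A9 peak lay at the upper end, shared with TRIP6, and the SLC4A3 peak lay past the upper end of the gene, which is not its start. Counting the start end alone, where the promoter table gives a strand, left 2 of 16 members in this pattern (SLC12A8 and SLC9A7). Of all genes in both DMSO lists when counted so, 18.2% had it. Leaving out DMSO replicate 1 gave 11 of 29 members, against 28.5% of all genes with a peak in DMSO replicate 2. Leaving out ACSS2i replicate 1 gave 9 of 24, against 22.8% of all genes in both DMSO lists. Leaving out ACSS2i replicate 2 gave 10 of 24, against 38.1% of those genes.

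Over the members that had a gene-end peak, the median percentile was 44.9 and 64.6 with DMSO and 69.1 and 77.1 with ACSS2i, against 66.7 and 77.2, and 56.0 and 60.4, over all genes with such a peak. The members counted are not the same ones in each library (24, 29, 14 and 15), and ranks from lists of unequal length show no change. The median fold of members was 5.07 and 7.78 with DMSO and 5.26 and 4.89 with ACSS2i, against 6.21, 8.91, 4.89 and 4.65 over all genes.

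Sequence at the starts also separated the classes. The promoter table held an entry for 63 of the 82 members: 21 tubule-specific, 16 widely used and 26 remaining. Each entry spans 250 bases before to 50 after a start, and the entry nearest the start of the gene span was used. For some members that entry lay far inside the span, at 43836 bp for SLC12A7, 33385 bp for SLC4A8 and 132900 bp for SLC22A23. There, CpG content and gene-end peaks were read at different places. The SLC4A8 window lay under a peak in both DMSO libraries, though the gene had no gene-end peak. The ratio of observed to expected CpG had a median of 0.233 in tubule-specific, 0.893 in widely used and 0.455 in remaining members, against 0.761 over 15843 protein-coding genes. At a ratio of 0.6 or more, called CpG-rich here, were 3, 13 and 11 members, or 14.3%, 81.3% and 42.3%, against 65.6% of genes. Among CpG-rich members a gene-end peak was present in both DMSO lists for 0 of 3 tubule-specific genes (SLC5A8, SLC9A3 and SLC26A4), 11 of 13 widely used and 2 of 11 remaining members, against 72.2% of all CpG-rich genes. Among CpG-poor members it was present for 2 of 18, 1 of 3 and 2 of 15, against 22.7%. CpG content and class moved together, and with so few CpG-rich tubule genes their parts were not tested. The window itself lay under a peak in both DMSO libraries for 1 of 21 tubule-specific members (SLC26A1), 10 of 16 widely used and 3 of 26 remaining members, against 49.1% of genes. Split by CpG, it did so for 10 of 13 CpG-rich widely used members, 3 of 11 remaining and 0 of 3 tubule-specific ones, against 68.2% of CpG-rich genes.

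**Figure D3:**
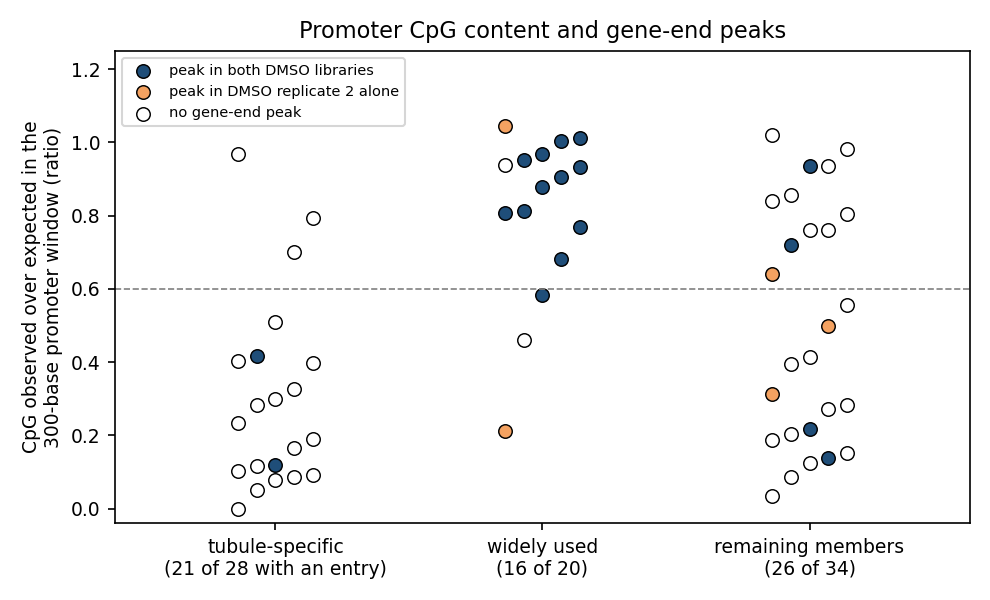
Ratio of observed to expected CpG (vertical axis) in the 300-base promoter window of the 63 members with an entry, by class; filled blue points had gene-end peaks in both DMSO libraries, orange points in DMSO replicate 2 alone, open points in none, and the dashed line marks 0.6. Of the 13 widely used genes above the line 11 are blue, while the 3 tubule-specific genes above it are open.

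Motifs were searched on both strands of these windows. GGGCGG, the letters bound by SP factors, occurred in 8 of 21 tubule-specific, 13 of 16 widely used and 11 of 26 remaining windows, against 58.3% of the 15843 protein-coding genes with 1 window each and 45.0% of all 35116 promoters in the table. TATAAA, the core of the TATA box, occurred in 6, 0 and 6 of them, against 9.75% of those genes and 11.5% of all promoters. Its tubule-specific carriers were SLC4A9, SLC12A3, SLC13A2, SLC22A6, SLC26A4 and SLC34A1. None of these had a gene-end peak, but of all tubule-specific genes with an entry only SLC5A10 and SLC26A1 had one. CCAAT was found in 5, 4 and 11 windows (36.4% of genes, 34.6% of all promoters), TGANTCA in 3, 2 and 2 (5.70% and 7.71%) and ACGTG in 1, 3 and 4 (23.7% and 21.4%). CCGGAAGT (6.16% and 4.14%) and the NRF1 motif (1.77% and 1.24%) were in none. These are letters in a window and not sites of binding. GGGCGG contains a CpG, so its counts share the difference in CpG content.

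Inside the spans, away from both ends by over 1000 bp, tubule-specific genes did hold peaks. A peak there with no gene-end peak was present for 12 and 12 of 28 tubule-specific genes with DMSO and 5 and 7 with ACSS2i, for 2, 1, 2 and 2 of 20 widely used genes, and for 9, 8, 5 and 5 of 34 remaining members. The low counts of widely used genes follow in part from the condition, since most of them had a gene-end peak. Without that condition, inner peaks were present for 15, 15, 7 and 8 of 28 tubule-specific genes, 7, 11, 6 and 6 of 20 widely used genes and 11, 13, 5 and 6 of 34 remaining members. Counted the same way, 6037, 7456, 3519 and 4252 of all 20037 genes had them. Member spans are longer, with a median of 43624 bp for tubule-specific genes against 24115 bp over all genes, and longer spans can hold more peaks. With the condition, all members gave 23, 21, 12 and 14 genes, against 12.4%, 11.5%, 11.1% and 11.3% of all genes. Per 100 kb of span, tubule-specific genes held 1.57 and 2.18 inner peaks with DMSO and 0.67 and 0.78 with ACSS2i, against 1.10 and 1.69, and 0.49 and 0.65, over all genes. Without SLC4A4, the longest contributor, the tubule-specific values were 1.41, 1.72, 0.70 and 0.78. Widely used genes held 1.11, 1.81, 0.64 and 0.76.

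SLC4A4 (chromosome 4, 71062660 to 71572083, plus strand), the electrogenic sodium bicarbonate cotransporter of the proximal tubule, had no gene-end peak but 10 and 17 inner peaks with DMSO and 3 and 4 with ACSS2i. The strongest region common to all libraries (71229562 to 71231614) had folds of 8.75 and 10.4 with DMSO and 5.91 and 5.55 with ACSS2i, at percentiles of 90.2, 90.5, 72.4 and 73.7. A second region common to all 4 (71186430 to 71188486) spans 2 inner RefSeq starts of the gene, 124105 and 124599 bp from its first start, and of the libraries only DMSO replicate 2 had a peak over those promoter windows. The region at a later inner start (71338771 to 71339528) had folds of 6.53 and 11.7 with DMSO and 8.81 in ACSS2i replicate 2, and no peak in ACSS2i replicate 1.

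**Figure D4:**
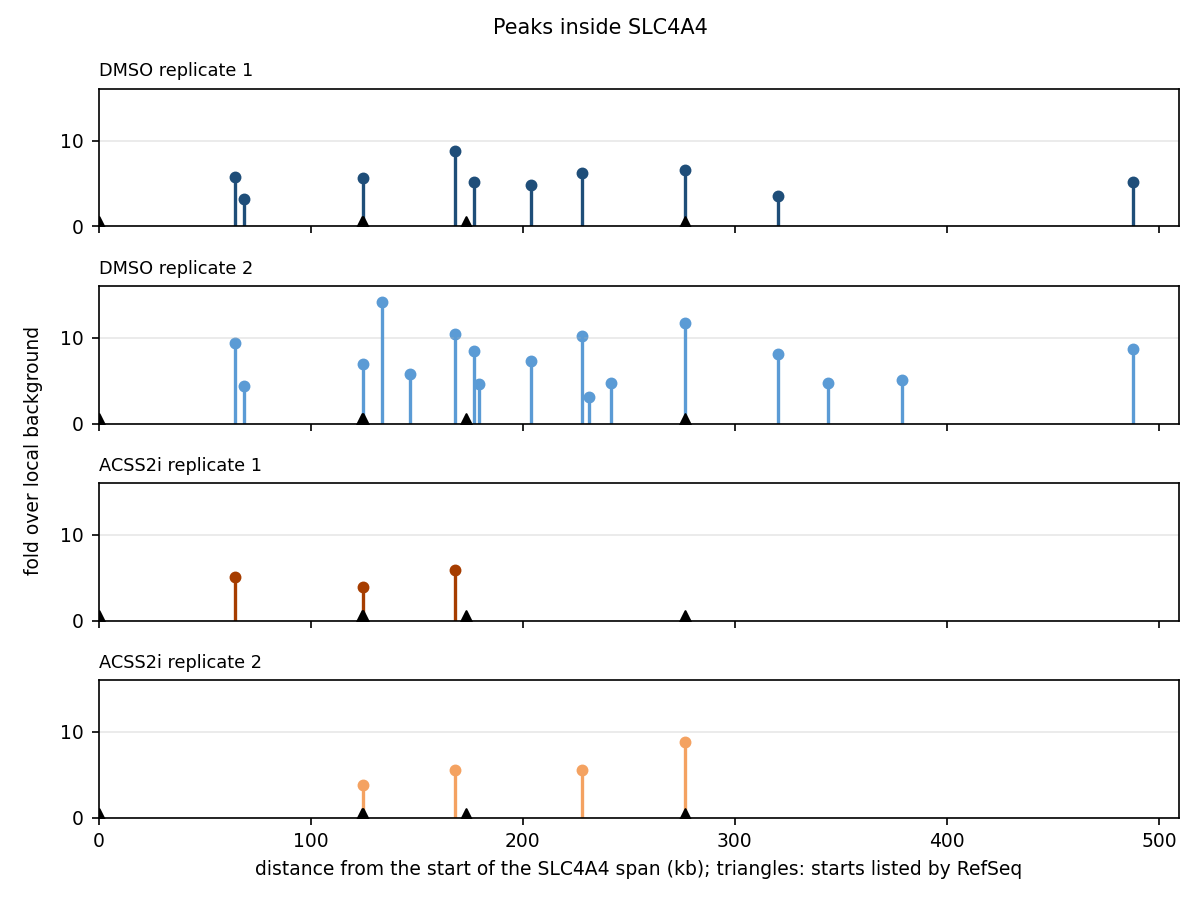
Fold over local background (vertical axis) of peaks inside SLC4A4 against distance from the start of its span in kb, one panel per library; triangles mark starts listed by RefSeq. DMSO replicates 1 and 2 show 10 and 17 peaks and ACSS2i replicates 1 and 2 show 3 and 4, with none at the first start.

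SLC22A2 (chromosome 6, 160216755 to 160258821), the organic cation transporter OCT2, had 3 inner regions. The one at 160253876 to 160255262 was present in all 4 libraries, with folds of 6.53 and 9.42 with DMSO and 4.69 and 6.90 with ACSS2i. Each of the other 2 was present in both DMSO libraries and 1 ACSS2i library. SLC34A1 (chromosome 5, 177384434 to 177398848), the main phosphate carrier of the proximal tubule, had an inner region at 177389264 to 177390748 in all 4 libraries, with folds of 5.85 and 9.62 with DMSO and 4.92 and 4.78 with ACSS2i, although no peak lay at its start. SLC5A2 (chromosome 16, 31483123 to 31490769), the glucose carrier SGLT2, had one at 31484487 to 31485044 in both DMSO libraries (folds of 6.50 and 7.97) and in ACSS2i replicate 2 (4.20). This region lay 1364 bp from the lower end, and the 2000 bp window counted it as a gene-end peak.

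SLC47A2 (chromosome 17, 19678317 to 19718979), the kidney extruder MATE2-K, had a region at 19716520 to 19716909 in all 4 libraries, over the inner start printed above, with folds of 5.58 and 7.64 with DMSO and 4.22 and 2.79 with ACSS2i. The first start had none. SLC9A5 (chromosome 16, 67248979 to 67272191), a brain sodium-proton exchanger among the remaining members, had 2 inner regions in all 4 libraries, the stronger with folds of 8.49 and 9.95 with DMSO and 5.51 and 4.78 with ACSS2i. Merged over libraries, the inner regions numbered 42 in 16 tubule-specific genes. Of the 24 in both DMSO libraries, 7 (29.2%) were in all 4 and 9 (37.5%) in no ACSS2i library, against 37.8% and 37.4% of 12649 inner regions of all genes. No inner region of a member was present in both ACSS2i libraries and neither DMSO library.

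At the window's edge, the nearest peak of SLC12A5, the neuronal chloride extruder, lay 968 bp from an end and was counted, with a fold of 2.59 in DMSO replicate 2. The nearest peak of SLC5A11 lay 1028 bp away and was not counted. An end lay within 1000 bp of an end of another protein-coding gene for 9 of 20 widely used, 4 of 28 tubule-specific and 9 of 34 remaining members, and of these, 8, 1 and 1 had gene-end peaks in both DMSO libraries. The matching shares over all genes were not counted, so these counts have no background and show no trait of a class.

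Of 32 regulators and partners of these carriers, 17 and 18 had a gene-end peak with DMSO and 10 and 15 with ACSS2i. It was present in both DMSO libraries for 16 and in all 4 libraries for 9, and 0 of the 16 were absent from both ACSS2i lists. The shares over all genes were 52.3% in both DMSO lists and, of those, 58.0% in all 4, so the counts of 16 and 9 lie near the background. Of all genes in both DMSO lists, 18.9% were absent from both ACSS2i lists, so the 0 of 16 lies below that share. The difference was not tested. Those present in all 4 included ATP1B1 and FXYD2, subunits of the sodium pump, NHERF1, a scaffold for apical carriers, the kinases WNK1 and OXSR1 that control SLC12 carriers, the ligase subunit CUL3, carbonic anhydrase CA2 and the sodium channel subunit SCNN1A. OXSR1 had folds of 7.44 and 11.1 with DMSO and 8.65 and 10.1 with ACSS2i. The 13 genes with no gene-end peak in any library included the tubule genes UMOD, AQP1, LRP2, CUBN, KCNJ1, KCNJ10, BSND, CA4 and SLC2A2, the factor HNF4A and the kinase SGK1. Of these, CUBN held 14 and 16 inner peaks with DMSO and 6 and 9 with ACSS2i. SLC2A2 and SGK1 also held inner peaks in all 4 libraries, and AQP1 in all but ACSS2i replicate 2. UMOD, KCNJ1, KCNJ10, BSND and CA4 held none in any. PDZK1, a scaffold for proximal tubule carriers, had folds of 3.56 and 4.44 with DMSO and 4.20 in ACSS2i replicate 2. SLC7A9 and SLC3A1, which form the cystine carrier, had gene-end peaks in DMSO replicate 2 and no other library, with folds of 10.5 and 6.30, while SLC3A1 held inner peaks in all 4.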

How the data were processed

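Peak lists of 4 ATAC-seq libraries of 786-O cells were used, 2 per treatment, grouped by the labels. The submitters' processing notes name Trimmomatic 0.38, Bowtie2, SAMtools 1.9, Picard 2.18.26 and MACS2 2.1.2, and the build hg38. The sources used here do not give the options of the caller, any Tn5 shift, duplicate handling or the filter on the lists. The authors called peaks per library. The fold ratio, the −log10 p-value and −log10 q-value, the score (10 times −log10 q) and the summit offset are deposited values of each summit within its library. All −log10 q were at least 2.

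Summits of one interval made 1 peak with the values of the strongest. Pileup and background (fragments at the summit) were solved from fold and −log10 p within 0.001, for at least 99.99% of peaks. Gene spans, strands and promoters came from RefSeq tables of GRCh38.p14; 63 of the 82 members had a promoter entry, and strand was known for those alone. Presence was a peak overlapping the window by 1 bp. Inner peaks lay wholly inside the span and outside both end windows. The overlap code was tested on simulated data. No test was run. Alternatives were windows of 500 and 2000 bp, −log10 q of at least 5, lists cut to 16400 peaks, the summit in place of the peak, the start end alone, and leaving out each library.

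Named genes follow a rule: tubule-specific genes with a gene-end peak; members with a peak in one treatment alone; the 6 strongest members of a class in all 4 libraries; the 5 strongest with inner peaks alone; and those at the window's edge. SLC12A2, SLC22A5, SLC47A2 and other genes named beyond it were chosen after their values were seen. Some genes of the lists are not reported here by name; the counts include them. The members and lists were chosen with earlier results of these data known. Python 3.11.15, numpy 2.4.6, pandas 2.3.3 and scipy 1.17.1 were used.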

Additional observations from a re-analysis of the deposited data

How the results depend on the processing

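With each list cut to 16400 peaks, members with a gene-end peak averaged 12.5 in DMSO (26.5 in the full lists), 0 were in both DMSO and no ACSS2i library (6), and both DMSO lists held peaks for 1 tubule-specific and 8 widely used genes (4 and 16). With the start end alone, 2 members were in both DMSO and no ACSS2i library, and 2 tubule-specific genes (SLC26A1 and SLC5A10) had one in both DMSO lists. With any RefSeq start, an alternative chosen after seeing the data, 2 members were in DMSO alone, and the 4 tubule-specific genes were SLC4A4, SLC5A10, SLC26A1 and SLC47A2. Leaving out 1 library at a time gave 6 to 11 members in DMSO alone. Mean counts per treatment were otherwise within 1.5 times the reported ones. Small counts within a class moved more: tubule-specific genes in all 4 libraries numbered 3 in place of 1 with any RefSeq start, and those in DMSO alone 0 to 3 (1 reported), while widely used genes in DMSO alone numbered 0 to 6 (3 reported). Fold medians, motif counts and inner-region counts were not recomputed. Tubule-specific genes in both DMSO libraries numbered 4 to 6 with windows of 500 and 2000 bp and at −log10 q of at least 5, and widely used genes 15 or 16. No paired analysis was possible because the results come from no test; values are printed in the order of the replicate numbers, which the labels do not tie to a shared culture or day. List length limits weak peaks: a missing peak is one that was not called, not a closed site.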
